A study of Mus musculus with 12 samples.

Results

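The 1153 promoters described here carried high DNA methylation both in the early germ line and in pluripotent stem cells of the mouse. They were selected on their measured levels: each had a level in all 12 libraries, at least 70% in both libraries of E9.5 primordial germ cells (PGCs) and at least 40% in all 4 libraries of embryonic stem cells (ESCs) and parthenogenetic ESCs (pESCs). They make up 6.43% of the 17925 autosomal promoters measured in every library, and 55.2% of the 2089 that reached 70% in both E9.5 PGC libraries. Of the remainder of those 2089, 428 were under 40% in all 4 stem cell libraries and 508 fell between. The levels of E9.5 PGCs, ESCs and pESCs chose the members, so those levels are given as a description, and tests were made only among E12.5 PGCs and the PGC-like cells (PGCLCs), whose 6 libraries the rule did not use.

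Levels came from reduced representation bisulfite sequencing (RRBS), in which genomic DNA is cut at CCGG by MspI, so that CpG-rich fragments are read. All groups were of the C57BL6 strain as labelled, with 2 libraries each. ESCs came from female embryos formed by fertilization and pESCs from oocytes activated with strontium, both from β-Actin-GFP mice. The lines were kept in serum and LIF and were passaged in t2iL medium, which holds LIF and inhibitors of MEK and GSK3, before induction; from which of these media the ESC and pESC libraries were made is not given in the sources used here. PGCs were taken from female embryos at embryonic day 9.5 or 12.5 and sorted by the surface markers SSEA1 and CD61, or by SSEA1 alone on magnetic beads. ESC-PGCLCs and pESC-PGCLCs were made from the matching stem cells by 2 days of induction to epiblast-like cells and 4 days with BMP4 at 500 ng/ml, SCF at 100 ng/ml, EGF at 50 ng/ml and LIF at 1000 IU, and were sorted as positive for both markers. No expression values were used here, so the identity of the cells was not checked against marker genes.

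In the mouse, PGCs lose most of their DNA methylation between their migration and their settling in the gonad, by dilution over cell divisions and by oxidation of methylcytosine. Certain classes of transposable elements are known to retain methylation through this phase. PGCLCs made in culture are thought to resemble PGCs from the migration stage. The members therefore describe how levels at E12.5 and in PGCLCs compared with a high level at E9.5.

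The genes behind these promoters were mostly not ordinary protein-coding genes. Pseudogenes of any kind accounted for 368 members and 322 of these were processed pseudogenes, which are retrotransposed copies of messenger RNAs. Protein-coding genes numbered 321, long intergenic non-coding RNAs 124, miRNA genes 99 and antisense RNAs 94. Members were 32.4% of all measured promoters of processed pseudogenes but 2.56% of those of protein-coding genes. They lay on all 19 autosomes, from 4.02% of the measured promoters of chromosome 18 to 9.12% of those of chromosome 1.

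The promoter window is not stated in the sources used here. Promoter levels that were identical in all 12 libraries to those of a CpG island placed it: of 430 such islands, 336 had their midpoint in the 2000 bases upstream of the gene start and 85 in the 2000 bases downstream. The 2000 bases upstream of the gene start in GRCm38, on the gene's strand, therefore stand for the promoter in all statements on sequence, and which CpGs in it were covered is not known. This window held no MspI site in 34 of the 1153 members and in 684 of the 17925 autosomal promoters. How often the covered CpGs lie outside it was not tested.

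Sequences of 6 members are shown first, because the amount of methylation kept differed with the sequence upstream. Each is the stretch of 120 bases with the most CpGs among those in the upstream window that contain an MspI site and touch no annotated exon, written 5′ to 3′ on the gene's strand from RefSeq's GRCm38 genome. Capitals mark every CpG, the dinucleotide whose methylation is measured, and an MspI site reads cCGg. The first 3 kept most of their level: Olfr1271, an olfactory receptor gene (chr2:90272773-90272892, minus strand, 1860 to 1741 bases upstream), Gm27704, a predicted miRNA gene (chr13:61336310-61336429, plus strand, 145 to 26 bases upstream), and Gm10780, a pseudogene (chr3:70688059-70688178, plus strand, 1033 to 914 bases upstream).
Olfr1271: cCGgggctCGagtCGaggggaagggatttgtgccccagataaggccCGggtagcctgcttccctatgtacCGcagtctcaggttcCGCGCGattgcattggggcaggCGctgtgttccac
Gm27704: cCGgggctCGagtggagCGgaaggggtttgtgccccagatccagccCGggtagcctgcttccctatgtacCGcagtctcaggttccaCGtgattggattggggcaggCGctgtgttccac
Gm10780: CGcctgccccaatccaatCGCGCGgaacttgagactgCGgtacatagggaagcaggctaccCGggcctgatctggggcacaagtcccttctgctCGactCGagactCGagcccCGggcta
The other 3 kept little: Gm19866, a long intergenic non-coding RNA (chr13:59916569-59916688, minus strand, 866 to 747 bases upstream), Gm35608, of the same kind (chr10:76684036-76684155, plus strand, 396 to 277 bases upstream), and 2810442N19Rik, an antisense RNA (chr1:162004464-162004583, plus strand, 505 to 386 bases upstream).
Gm19866: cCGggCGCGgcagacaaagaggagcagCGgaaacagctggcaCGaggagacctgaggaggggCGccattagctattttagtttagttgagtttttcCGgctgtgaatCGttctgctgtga
Gm35608: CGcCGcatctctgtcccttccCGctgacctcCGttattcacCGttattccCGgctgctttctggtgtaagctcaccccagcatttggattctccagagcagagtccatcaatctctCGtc
2810442N19Rik: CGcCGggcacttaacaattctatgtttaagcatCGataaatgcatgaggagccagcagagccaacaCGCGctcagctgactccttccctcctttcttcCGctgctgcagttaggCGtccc
The first 3 stretches share a run that holds an MspI site, aagcaggctacCCGGg with the site in capitals here, or its reverse complement cCCGGgtagcctgctt, while the last 3 do not hold it. The 6 are examples, picked with the levels known, and their contrast is not a test. Among the 37 members at 70% or more in all 6 libraries of E12.5 PGCs and PGCLCs, 13 had the run in their window. Of the 45 members that kept under 50% at E12.5, 0 had it. Over all members 33 of 1153 had it (2.86%), a share too small to set 0 of 45 apart from it. The run was itself chosen from windows of members.

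The members stood below their E9.5 level in every later group, and least so in ESC-PGCLCs. Their median level was 79.3% and 79.4% in the E9.5 PGC libraries, 52.9% and 53.1% in E12.5 PGCs, 66.2% and 66.7% in ESC-PGCLCs, with 62.0% and 61.6% in pESC-PGCLCs. The medians of each pair of libraries differed by less than 1 percentage point, and those of the 3 later groups did not overlap. Expressed as a share of its own E9.5 level, the median member kept 66.8% at E12.5, 83.7% in ESC-PGCLCs, with 77.9% in pESC-PGCLCs. PGCLCs were made from stem cells, so their share kept is only a ratio to E9.5 PGCs and measures no loss. No test was made of these medians, because 2 libraries against 2 cannot reach a p below 0.333 in an exact permutation test.

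The stem cell libraries were less alike. ESC replicate 1 had a median of 68.1% and ESC replicate 2 of 53.3%, and 823 members differed by 10 points or more between them. In pESCs the medians were 62.9% and 57.2%, with 145 such members. The later groups were closer, with 102 such members in E12.5 PGCs, 53 for the ESC-PGCLC pair and 39 for the pESC-PGCLC pair. ESC replicate 2 thus lay nearest the 40% threshold, and in it the 5th percentile of the members was 41.5%.

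**Figure D1:**
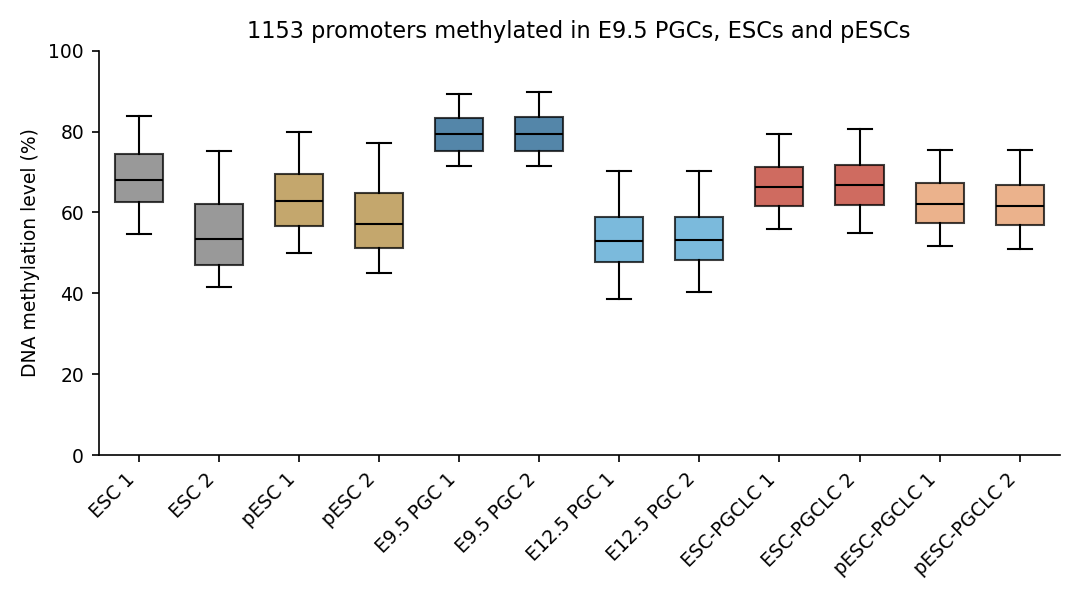
DNA methylation level in percent of the 1153 members in each of the 12 libraries; boxes span the quartiles, the line is the median and whiskers reach the 5th and 95th percentiles. E9.5 PGC, ESC and pESC libraries were used to choose the members; the E12.5 PGC medians, 52.9% and 53.1%, lie below the boxes of both kinds of PGCLC.

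Promoters on either side of the thresholds were close in value. Just inside the E9.5 threshold were Gm45687, Prok1 and Gm14041, with the lower E9.5 library at 70% in each, and just outside were Gm16350, Olfr212 and Gm9661 at 69.9%, 69.9% and 69.8%. At the stem cell threshold Olfr1393, Rfc2 and Gm44916 had a lowest library of 40%, and Gm44684, Tcl1b1 and Olfr1344 one of 39.9%. At E12.5, mean levels ran from 43.3% to 50.5% in the 6 inside and from 39.1% to 58.8% in the 6 outside.

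The spread of the share kept was narrow at E12.5 for most members. Its quartiles were 61.8% and 72.1%, 45 members kept under 50%, and 5 kept 90% or more. In ESC-PGCLCs 188 members kept 90% or more and 17 of them stood at or above their E9.5 level, whereas pESC-PGCLCs had 51 and 2. By group means, 1005 members (87.2%) had the order ESC-PGCLC, then pESC-PGCLC, then E12.5 PGC from high to low.

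Promoters of the E9.5 set that were under 40% in stem cells are the closest comparison. These 428 had E9.5 medians of 78.2% and 78.4% and E12.5 medians of 49.3% and 50.2%, and kept 64.5% at E12.5. In ESC-PGCLCs they kept 74.1% against 83.7% for the members, and in pESC-PGCLCs 65.2% against 77.9%. The medians of the 2 sets were thus closer at E12.5 than in either kind of PGCLC. The PGCLCs were derived from the stem cells on which these sets were separated, and the comparison is a description.

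ESC-PGCLCs had more methylation than E12.5 PGCs at most members. Of 1153 members, 754 were called higher in ESC-PGCLCs and 5 lower by limma (adjusted p under 0.05 over all 138361 features and a difference of at least 10 percentage points). Among all 18372 autosomal promoters in that fit, 13.3% were called higher and 0.523% lower, although most of those stood too low in every group to differ by 10 points. Over all 138361 features 21.4% were called higher and 0.536% lower. Of the 428 promoters under 40% in stem cells, 106 were called higher and 9 lower. The median difference over members was 13.2 points. The number called rested on the libraries: it was 503 without E12.5 PGC replicate 2, 290 without ESC-PGCLC replicate 1, 36 without E12.5 PGC replicate 1 and 13 without ESC-PGCLC replicate 2. ESC-PGCLCs stood higher over all features, by 0.46 log2 odds units in the library medians, and after centring on those medians 84 members were called higher and 5 lower.

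**Figure D2:**
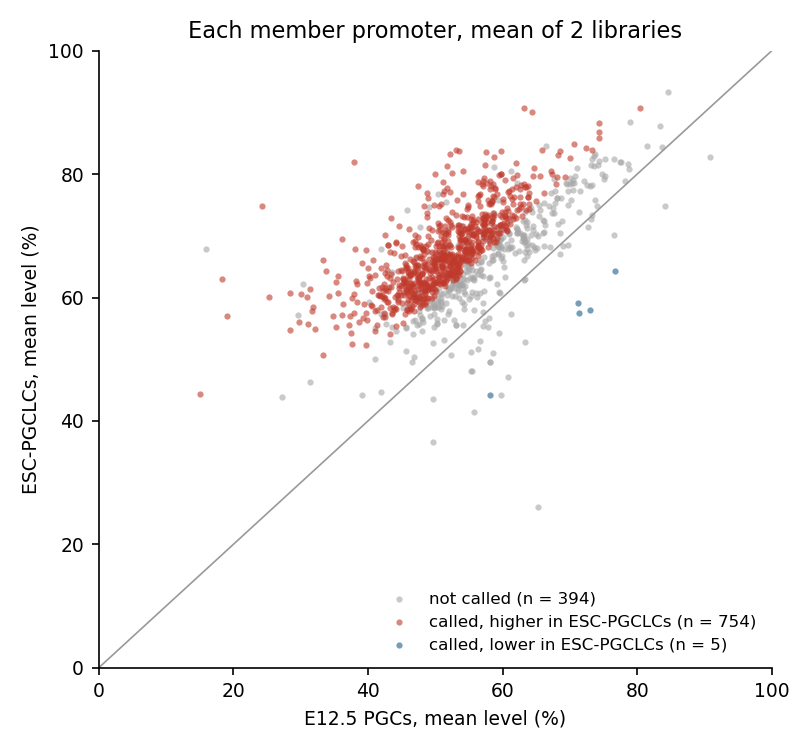
Mean level of each member in ESC-PGCLCs (vertical axis, percent) against E12.5 PGCs (horizontal axis, percent), each the mean of 2 libraries; the line marks equal levels. Red points are the 754 members called higher in ESC-PGCLCs, blue points the 5 called lower and grey points those not called.

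The called members with the greatest excess in ESC-PGCLCs were non-coding genes. The miRNA gene Mir6932 had a higher mean excess, 67.8% in ESC-PGCLCs beside 15.9% at E12.5, but its replicates were far apart and it was not called. AC105304.3, a long intergenic non-coding RNA on chromosome 17, had 75% and 76.1% at E9.5, then 28.4% and 20% at E12.5, 70.9% and 78.7% in ESC-PGCLCs, with 56.7% and 57.0% in pESC-PGCLCs. Its E12.5 libraries lay below all 4 PGCLC libraries, and the difference between ESC-PGCLCs and E12.5 PGCs was 50.6 points (log2 odds 3.17 ± 0.29 SE, adjusted p = 0.00856, limma). Gm35608 on chromosome 10 fell from 78.5% and 79.4% at E9.5 to 18.1% and 18.6% at E12.5, against 63.6% and 62.3% in ESC-PGCLCs, with 56.9% and 53.6% in pESC-PGCLCs (log2 odds 2.85 ± 0.12 SE for ESC-PGCLCs against E12.5 PGCs, adjusted p = 0.00594, limma). Gm23899, annotated as a ribosomal RNA gene, had 35.7% and 40.2% at E12.5 and 80.9% and 82.9% in ESC-PGCLCs, beside 81.4% and 79.3% at E9.5. 2810442N19Rik, Gm31718 and Gm40438 completed the 6 called members with the largest differences, at 38.0, 34.8 and 33.2 points.

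The 5 members called lower in ESC-PGCLCs kept 81.1% to 97.6% of their E9.5 level at E12.5, above the upper quartile of all members. A high share at E12.5 follows in part from the call, which needs E12.5 PGCs to exceed ESC-PGCLCs by at least 10 points. Fancl, the E3 ubiquitin ligase of the Fanconi anaemia DNA repair pathway, had 72.1% and 74.0% at E12.5 but 58.5% and 57.4% in ESC-PGCLCs, with 61.5% and 58.3% in pESC-PGCLCs (log2 odds -0.95 ± 0.12 SE for ESC-PGCLCs against E12.5 PGCs, adjusted p = 0.0107, limma). Fmn2, a formin that nucleates actin in oocytes, had 72.2% and 70.5% at E12.5, 57.7% and 57.3% in ESC-PGCLCs, with 52.6% and 56.0% in pESC-PGCLCs. In both genes the E12.5 libraries lay above all 4 PGCLC libraries. The predicted miRNA gene Gm27437 stayed at 77.0% and 76.3% at E12.5, close to its E9.5 level of 77.7% and 79.4%, and stood at 63.9% to 65.7% across the PGCLC libraries. Gm45680 and the small nucleolar RNA gene Gm24079 were the other members called lower, by 13.9 and 12 points (adjusted p = 0.0109 and 0.0484, limma). Gm45680 had 43.7% and 44.7% in ESC-PGCLCs but 60.5% and 58.7% in pESC-PGCLCs beside 58.0% and 58.1% at E12.5.

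In pESC-PGCLCs the same comparison gave fewer calls. Relative to E12.5 PGCs, 153 members were called higher and 3 lower, beside 2.61% and 0.163% of autosomal promoters. A higher mean was seen at 1095 of 1153 members, 100386 of 138361 features and 251 of the 428 promoters under 40% in stem cells. In the library medians over all features pESC-PGCLCs stood higher by 0.32 log2 odds units. Most autosomal promoters again stood too low to differ by 10 points. Over all 138361 features 3.24% were called higher and 0.155% lower. Of the 428 promoters under 40% in stem cells, 3 were called higher and 7 lower. The median difference over members was 8.64 points. Leaving out any 1 of the 6 libraries left 0 members called, and after centring on the library medians 2 were called higher and 1 lower. The called members with the largest differences were Gm35608 (37.0 points, adjusted p = 0.0178, limma), 2810442N19Rik (34.0 points), AC105304.3 (32.6 points), Gm27288 (30 points), Gm19866 (28.7 points) and Gm31718 (27.9 points). Fmn2, Fancl and Gm27437 were the 3 called lower. Gm27288, a predicted miRNA gene, was unusual in that its PGCLC libraries, at 81.1% to 85.4%, exceeded its E9.5 level of 77.0% and 73.3%, and its 4 stem cell libraries stood at 92.1% to 92.9%.

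No member differed between pESC-PGCLCs and ESC-PGCLCs by the limma test, in either direction. Among autosomal promoters 0.0435% were called higher in pESC-PGCLCs and 0% lower. Over all features 0.0282% were called higher and 0.00723% lower. Of the 428 promoters under 40% in stem cells, 0 were called in either direction. At an unadjusted p under 0.05 there were 348 of 1153 members, 23141 of 138361 features and 185 of the 428. A lower mean in pESC-PGCLCs was seen at 1051 members, 98611 features and 402 of the 428. The median difference was -6.42 points over the 428. Over members it was -4.44 points, with 9 in 10 members between -10.4 and 1.45 points. With 2 libraries per group, differences of this size did not pass the adjustment, which does not show that the levels were equal.

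**Figure D3:**
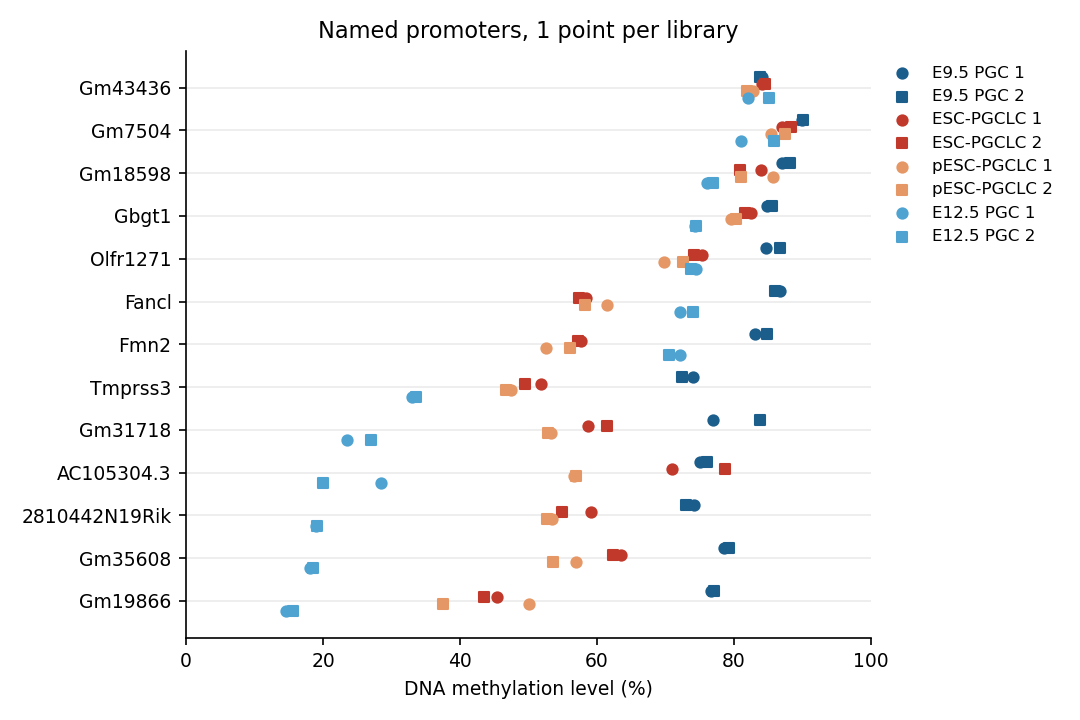
DNA methylation level in percent of 13 members named in the text, 1 point per library of the PGCs at both ages and of both kinds of PGCLC, with circles for replicate 1 and squares for replicate 2. From Gm43436 to Olfr1271 all points stay above 69%, Fancl and Fmn2 are higher at E12.5 than in PGCLCs, and from Tmprss3 down the E12.5 points lie left of all PGCLC points.

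At 37 members the level stayed at 70% or more in all 6 later libraries, and no other autosomal promoter did so. By contrast, no member was under 40% in all 6, and 1 was under 50% in all 6. The highest minimum belonged to Gm43436, a processed pseudogene on chromosome 3 (chr3:95780724-95780870), which had 84.1% and 83.8% at E9.5, then 82.1% and 85.1% at E12.5, 84.2% and 84.6% in ESC-PGCLCs, with 82.9% and 81.9% in pESC-PGCLCs. The range of its E12.5 libraries overlapped those of E9.5 PGCs and of both kinds of PGCLC, while its stem cell libraries ran from 59.5% to 74.7%. Gm7504, Gm34885, Gm14036, Gm27704, Gm18598, Gm10780, Gm47654, Gbgt1 and Gm10709 followed, with E12.5 means from 74.4% to 84.5%. Gbgt1, which encodes a glycosyltransferase of the globoside family, was the only protein-coding gene among these 10, with 84.8% and 85.5% at E9.5, then 74.3% and 74.4% at E12.5, 82.5% and 81.7% in ESC-PGCLCs, with 79.7% and 80.3% in pESC-PGCLCs. Gm6197, a processed pseudogene, had the highest E12.5 mean of the members, 89.5% and 92.2%, and went down to 78.2% and 71.8% in pESC-PGCLCs.

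The smallest shares kept at E12.5 belonged to 5 non-coding genes whose E12.5 libraries were within 10 points of each other. Gm19866 kept 19.6%, with 76.7% and 77.1% at E9.5 but 14.5% and 15.6% at E12.5, while its PGCLC libraries ranged from 37.5% to 50.1%. Gm35608 kept 23.2%, 2810442N19Rik 25.9%, Gm31718 31.4% and AC105304.3 32.1%. The miRNA gene Mir6932 had a lower mean share, 19.2%, but its E12.5 libraries were far apart, at 2.17% and 29.7%, and it was singled out after its values were seen. Among protein-coding genes Tmprss3, a serine protease of the inner ear, had 33.0% and 33.6% at E12.5, below its PGCLC libraries at 46.7% to 51.8% (17.4 points between ESC-PGCLCs and E12.5 PGCs, adjusted p = 0.00929, limma). The other members with a low ceiling in the 6 later libraries were Gm7933, A930014E10Rik, CT025731.2, Sema4d, Gm15664, Gm43737, Gm45515 and Gm17831, of which Gm45515 had discordant E12.5 libraries at 44.4% and 10.1%. Gm7933 was the member whose 6 later libraries all stayed under 50%, from 37.5% to 46.3%.

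The members that kept most and least differed in the repeats upstream of them. Over all 1153 members the median share of the upstream window that is soft-masked as repeat in the genome was 24.8%, against 19.6% over all autosomal promoters and 24.98% over the 428 promoters under 40% in stem cells. Windows at least 50% masked made up 17.95% of members, 5.78% of all autosomal promoters and 11.7% of the 428. The 96 members that kept 80% or more at E12.5 had a median masked share of 59.1% and 57.3% of them were at least 50% masked. Among the 45 that kept under 50%, the median was 14.1% and 0 were at least 50% masked. The CpG number was alike in these extremes, with medians of 29 and 30 in the window and 3 MspI sites in each.

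The share kept was higher in every later group where more than 50% of the window was masked. Where under 10% of the window was masked (184 members) the median share kept was 64.7% at E12.5, 82.9% in ESC-PGCLCs, with 76.1% in pESC-PGCLCs. At 50 to 75% masked (118 members) it was 72.9%, 87.7% and 81.9%, and above 75% masked (89 members) it was 75.9%, 89.7% and 85.5%. The E12.5 libraries taken singly gave 64.5% and 64.8% in the first of these bins and 75.9% and 75.7% in the last. Spearman's rho between the masked share and the share kept was 0.35 at E12.5, 0.25 in ESC-PGCLCs and 0.32 in pESC-PGCLCs over the 1153 members, which share libraries and, where repeats are concerned, sequence. For the number of CpGs it was -0.06 at E12.5, and for the GC content of the window -0.24, so that windows of lower GC content tended to keep more.

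Members resembling many other members kept more. When the windows were aligned to each other with blastn (at least 300 bases at 80% identity, neighbours within 10000 bases left out), 824 members had no partner and 88 had 50 or more. The median E12.5 level was 51.3% without a partner, 56.2% with 1 to 9 partners, 58.1% with 10 to 49 and 63.2% with 50 or more, and the share kept was 65.3%, 69.6%, 71.6% and 78.1%. E9.5 medians in the same order were 78.9%, 80.3%, 81.2% and 81.1%. Of the 37 members at 70% or more in all later libraries 30 had a partner, beside 28.5% of all members, and of the 45 that kept under 50% none did. The levels of such members are uncertain: reads from near-identical copies align uniquely only where copies differ, and how far that touched the levels of these members was not tested.

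Deposited levels of repeats named the element in part of the cases. Levels identical in all 12 libraries to those of an annotated repeat were found for 72 members (6.24%), beside 1.39% of all autosomal promoters; in these the repeat holds the same CpGs. L1 elements, autonomous retrotransposons of the LINE class, accounted for 55 of the 72, and 49 of those repeat annotations began within the first 500 positions of the element, the end at which L1 carries its own promoter. The elements were mostly of the L1MdA (21 members) and L1MdF (25 members) families. Members with an L1 element kept 74.5% of the E9.5 level at E12.5, 86.9% in ESC-PGCLCs, with 83.2% in pESC-PGCLCs in the median. The 11 members with an ERVK long terminal repeat element kept 68.7%, 82.7% and 78.5%. Olfr1271, with an L1MdA_II element, had 74.5% and 73.7% at E12.5 and 75.3% and 74.2% in ESC-PGCLCs, a difference that did not pass the test (adjusted p = 0.794, limma). Gm18598, with an L1MdF_V element, had 76.1% and 77.0% at E12.5. Among those that kept less were Lipo3, a lipase family gene with an L1MdF_II element, at 53.7% of its E9.5 level, and D5Ertd615e with RMER17A2 at 58.6%.

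The run shown with the sequences is the word of 16 bases with an MspI site that the windows of the 21 L1MdA members shared most often, in 9 of them, and it was chosen from these windows. On either strand it occurred in 38 of the 17925 autosomal windows (0.212%), and 33 of these were members (2.86% of members). The 33, and their shares kept, include the 9 L1MdA members, so the excess among members follows in part from the choice. Of the 428 promoters under 40% in stem cells 0 had it, too few promoters to set 0 apart from 0.212%. The 33 lay on 14 chromosomes and included 11 pseudogenes, 8 predicted miRNA genes and 4 protein-coding genes, Olfr1271, Olfr1298, Vmn2r44 and Sult2a4, which are chemosensory receptors and a sulfotransferase. Their E12.5 levels ran from 57.7% to 78.9% with a median of 69.2% in replicate 1, and from 56.6% to 83.3% with a median of 72.2% in replicate 2. The median share kept was 82.6% at E12.5 (70.4% to 97.6%), beside 66.6% in members without the word, 89.3% in ESC-PGCLCs, with 86.6% in pESC-PGCLCs. In the remaining 5 promoters, Gm22246, Gm48501, Gm48132, Gm48269 and Gm44055, the mean E9.5 level was 82.0% to 86.9% and the mean E12.5 level 70.4% to 71.7%, with at least 1 stem cell library under 40%. Gm48132 and Gm48269 had identical levels in every library and count as 1 measurement. Among the 33, 4933433N18Rik and Gm48054 on chromosome 13 had equal levels in some libraries and may not be separate measurements. The corresponding word of L1MdF, catcttggttCCGGga, was in 14 members, which kept 73.1% at E12.5, and in 18 promoters in all. A match in the window does not show that the covered CpGs lie in it.

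**Figure D4:**
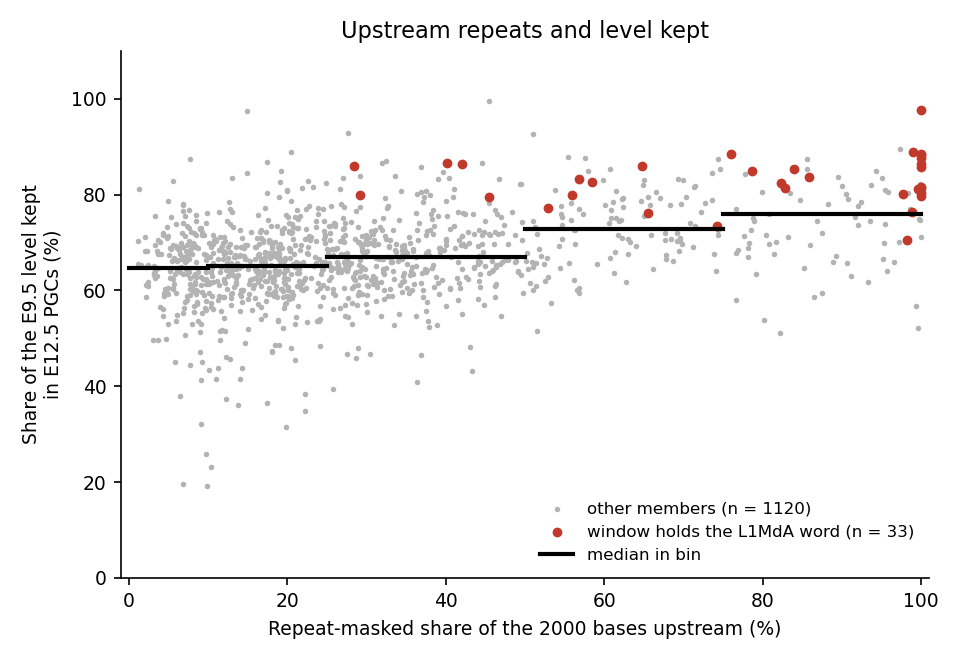
Share of the E9.5 level kept in E12.5 PGCs (vertical axis, percent) against the repeat-masked share of the 2000 bases upstream (horizontal axis, percent) for each member; black bars are medians in 5 bins. Red points are the 33 members whose window holds the L1MdA word; they keep 70.4% to 97.6%, and all 45 members that keep under 50% have less than 50% of the window masked.

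The body of the gene and its 5′ UTR did not always share the methylation upstream. A 5′ UTR level was listed in all libraries for 96 members, all protein-coding, and in 52 of them it was under 20% at E9.5, with a median of 2.97% in these. Over all autosomal promoters with such a level, 92.3% had a 5′ UTR under 20%. Upstream, the promoters of the same 52 genes had medians of 77.8% at E9.5, 51.1% at E12.5, 63.2% in ESC-PGCLCs, with 58.9% in pESC-PGCLCs, while their 5′ UTRs stayed between 2.25% and 2.97% in all 6 groups. They included genes that most cells use. Parp1, a DNA repair polymerase, had a promoter at 79.8% and a 5′ UTR at 3.31% at E9.5. Tars, the threonyl-tRNA synthetase, had 79.3% and 3.22%, and Sec13, a coat protein of the secretory pathway, 83.2% and 2.34%. Fmn2 had a 5′ UTR at 2.39% at E9.5 and 3.12% at E12.5 beside its promoter at 84.0% and 71.3%.

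**Figure D5:**
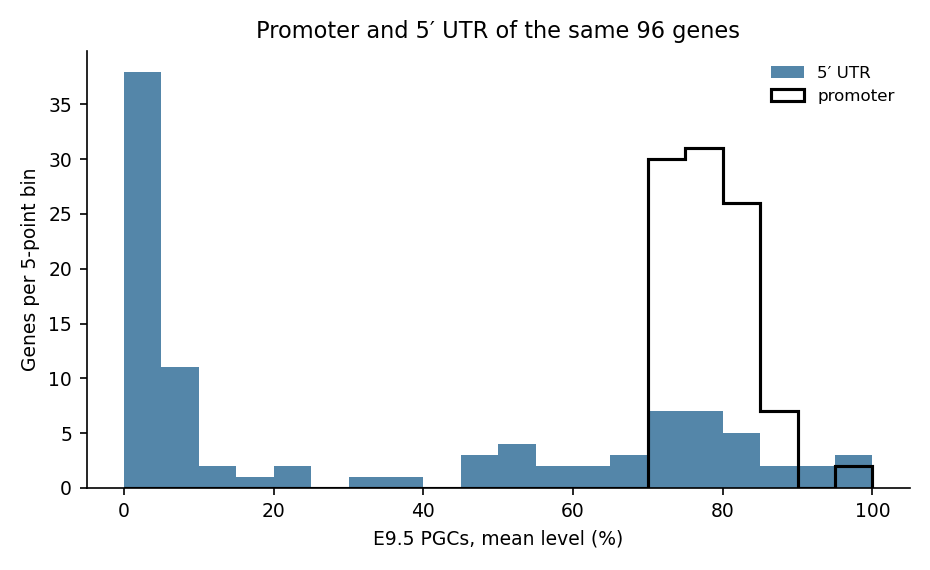
Number of genes per 5-point bin of E9.5 PGC level for the promoter (black outline) and the 5′ UTR (filled) of the 96 members with both measured. Promoters start at 70% by the choice of members, whereas 52 of the 5′ UTRs are under 20%.

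The other parts of the member genes were closer to their promoters. Exons of 501 members had median levels of 73.3% at E9.5, 47.7% at E12.5, 59.3% in ESC-PGCLCs, with 54.5% in pESC-PGCLCs, and introns of 375 had 66.3%, 42.4%, 53.6% and 49.1%. Across all autosomal genes with a promoter level, exons had a median of 14.5% and introns of 38.2% at E9.5. At 3′ UTRs the 63 members and all genes were alike, with 73.5% and 70.9% at E9.5 but 46.1% and 44.2% at E12.5.

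Of 40 germline genes measured, 1 was a member (2.5%, beside 2.56% of all protein-coding promoters): Tex101, a surface protein of germ cells, with 88.8% and 87.5% at E9.5, then 69.98% and 61.2% at E12.5, 74.99% and 73.6% in ESC-PGCLCs, with 70.8% and 75.3% in pESC-PGCLCs. Neither PGCLC comparison of Tex101 passed the test. None of 37 imprinted genes, 23 pluripotency and epiblast genes or 18 genes of DNA methylation was a member, lists too short to set 0 apart from a share of 2.56%. The imprinted list held no miRNA gene, and 4 miRNA genes of the imprinted Dlk1-Dio3 region, Mir127, Mir431, Mir433 and Mir434, were members. There were also no members among 10 serpins, 26 interleukins and their receptors, 15 chemokines and their receptors, 5 clustered protocadherins and 1 natural killer receptor.

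Chemosensory receptors were the family of known function with the most members, 21 of 76 measured (27.6%, beside 6.43% of all autosomal promoters). Their median was 61.2% at E12.5, 69.4% in ESC-PGCLCs, with 66.3% in pESC-PGCLCs, the share kept at E12.5 ran from 59.3% to 87.4%, and 8 of the 21 were called higher in ESC-PGCLCs than at E12.5, beside 65.4% of all members, the share against which the counts called in the other families are to be read. Olfr840-ps1 had 76.3% and 72.3% at E12.5, Olfr1271 74.5% and 73.7%, and Olfr765 67.2% and 69.8%, with discordant ESC-PGCLC libraries at 82.6% and 58.3% in the last. Solute carriers had 7 members of 251 (2.79%, beside 2.56% of protein-coding promoters) and kept a median of 57.4%, with Slc27a5 (62.5% and 55.1% at E12.5), Slc7a15 (53.6% and 51.4%) and Slc25a21 (49.8% and 45.8%) the highest; 4 were called higher in ESC-PGCLCs. Of 258 zinc finger genes 4 (1.55%) were members and all 4 were called higher in ESC-PGCLCs, Zfp729a standing at 59.6% and 61.7% at E12.5 and 71.3% and 70.1% in ESC-PGCLCs, with Zfp719 and Zfp862-ps next.

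Genes of skin, immunity and the liver made smaller groups. Members were 11.5% of keratins, 14.7% of leukocyte surface genes, 7.14% of histocompatibility genes and 10.5% of immune receptor segments. They were 66.7% of beta-defensins and 14.3% of cytochrome P450 genes, beside 2.56% of protein-coding and 6.43% of all autosomal promoters. The lists are short, and no test was made of these shares. Keratins had 3 members of 26: Krt26 (60.9% and 64.3% at E12.5), Krt27 (59.4% and 60.3%) and Krt1, the epidermal keratin, which stood at 50.0% and 52.2% at E12.5 and at 61.0% and 63.9% in ESC-PGCLCs (adjusted p = 0.0226, limma). The leukocyte surface genes had 5 members of 34, 4 of them called higher in ESC-PGCLCs, with Cd40, a co-stimulatory receptor, at 49.3% and 51.8% at E12.5 and 60.8% and 63.7% in ESC-PGCLCs, followed by Cd163l1 and Cd177. H2-Ab1, an MHC class II beta chain and the 1 member of 14 histocompatibility genes, had 40.5% and 42.6% at E12.5 and 61.1% and 59.8% in ESC-PGCLCs (adjusted p = 0.0123, limma). Of 19 immune receptor segments 2 were members, both immunoglobulin kappa pseudogenes, which kept 89.5% and 83.3% at E12.5. Of 3 beta-defensins 2 were members: Defb7 had 54.1% and 56.4% at E12.5 and 71.4% and 72.4% in ESC-PGCLCs, and Defb6 had 64.3% and 75% and 70.5% and 66.7%. Cytochrome P450 genes had 4 members of 28, 3 called higher in ESC-PGCLCs, with Cyp4b1-ps2, Cyp2d22 and Cyp27a1, the sterol 27-hydroxylase of bile acid synthesis, between 46.0% and 55.8% in the E12.5 libraries.

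Unnamed gene models made up most of the rest. Predicted genes gave 642 members of 3854 (16.7%), with a median of 54.1% at E12.5, and 413 of them were called higher in ESC-PGCLCs, close to the 65.4% of all members, and Gm6197, Gm34885 and Gm13313 were the highest at E12.5. In Gm13313 the E12.5 libraries were discordant, at 100% and 68.4%. RIKEN cDNA genes gave 83 members of 1068 (7.77%), led at E12.5 by 3110070M22Rik (71.8% and 71.3%), 4933433N18Rik (68.1% and 72.6%) and 4632432E15Rik (68.6% and 67.6%).

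Members with a miRNA symbol numbered 55 of 346 measured (15.9%), with a median of 52.9% at E12.5 and 39 called higher in ESC-PGCLCs, beside 65.4% of all members. The 3 highest at E12.5 were Mir678, Mir7047 and Mir1231, and their mature sequences from RefSeq (GRCm38.p6) are shown with the seed, bases 2 to 8, in capitals, because the seed sets which messages a miRNA binds.
mmu-miR-678: gUCUCGGUgcaaggacuggagg
mmu-miR-7047-5p: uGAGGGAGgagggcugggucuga
mmu-miR-7047-3p: uCACCCUCacccuuccuccuucc
mmu-miR-1231-5p: uCUGGGCAgagcugcaggagaga
mmu-miR-1231-3p: uGCCCUGUcuguucugcccacag
The 5 seeds all differ, and of the 90 mature sequences found for 50 of the 99 members annotated as miRNA genes, 1 seed was shared by more than 1 gene. Mir678 had 60.8% and 68.3% at E12.5 and 80.5% and 78.8% in ESC-PGCLCs (15.1 points, adjusted p = 0.0153, limma). Mir7047 had 65.9% and 58.1% and then 76.6% and 79.2% (15.9 points, adjusted p = 0.0181), and Mir1231 had 63.8% and 56.7% and then 70.9% and 64.9%, which did not pass the test. Chosen after its values were seen, Mir127, a maternally expressed miRNA of the Dlk1-Dio3 region, had 79.1% and 77.9% at E9.5, then 53.3% and 57.9% at E12.5, 71.0% and 69.6% in ESC-PGCLCs, with 63.0% and 66.3% in pESC-PGCLCs. In the same region, mean levels at E12.5 and in ESC-PGCLCs were 53.6% and 68.3% for Mir431, 54.4% and 67.6% for Mir433, and 50.1% and 61.0% for Mir434.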

How the data were processed

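DNA methylation was measured by RRBS in 12 libraries, 2 for each of 6 groups. Per the labels and methods, the authors aligned reads to mm10 with Bismark 0.16.3 and Bowtie2, kept unique best alignments and corrected levels for non-conversion. The deposited values are a fraction of methylated calls per annotated feature, printed here as percent. Read depth per feature is unknown, so no interval from counts is given, and the promoter window and coverage minimum are not given in the sources used here.

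The 138361 features with a level in all 6 libraries of both kinds of PGCLC and of E12.5 PGCs were tested on log2 odds (offset 0.01) with limma 3.58.1 in R 4.3.3. A call needed a Benjamini-Hochberg adjusted p under 0.05 over all features and a difference of at least 10 points. The method was tested on simulated data. The study describes its RRBS libraries as biological replicates, of mice or of cell cultures, while the labels only number them; p-values measure the spread between these libraries. Genes were matched by Ensembl ID to GENCODE M21, and 14 of 18456 promoters had no gene. Windows came from RefSeq's GRCm38.p6 genome, in which the islands of 19 of 19 autosomes fitted, and were aligned with blastn 2.17.0. Other steps used Python 3.11.15. Members, gene lists and named genes were chosen with earlier results of these data known. The named genes were the 10 with the highest minimum and the 10 with the lowest maximum in the 6 later libraries, up to 6 called per contrast and direction, those nearest the thresholds, up to 3 per gene list, and the 5 with the largest and smallest share kept. The groupings by masked share, aligned partners and 16-base word, and the members named for their element or 5′ UTR, were chosen after seeing the data.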

Additional observations from a re-analysis of the deposited data

How the results depend on the processing

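Depth was unknown and each group had 2 libraries, so calls followed the choice of fit. For ESC-PGCLCs against E12.5 PGCs, 759 members were called in all. The count was 323 with all 12 libraries in the fit, 89 after centring on the library median, 128 at a minimum difference of 20 points, 214 for members chosen at 80% and 50%, and 1275 for those chosen at 60% and 30%. Leaving out 1 library gave 13 to 669. For pESC-PGCLCs against E12.5 PGCs, 156 were called, against 320 with 8 libraries in the fit, 9 with all 12, 289 and 17 at offsets of 0.1 and 0.001, 273 on untransformed levels, 3 after centring, 23 at 20 points and 61 for members chosen at 80% and 50%. Leaving out any 1 of the 6 libraries gave 0. Between the kinds of PGCLC the count was 0 and ranged from 0 to 1 with 1 library left out, the 1 being without ESC-PGCLC replicate 1. The causes of these shifts were not tested, apart from the fewer members or the larger minimum that the alternatives set themselves.

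With the replicate number as a block (replicate block) the counts were 707, 0 and 0 in the same order. Deviations of same-numbered libraries correlated at -0.02, -0.02 and 0.05, and the labels name no shared batch. With 2 libraries per group these correlations cannot show whether the libraries were prepared in pairs.

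Median levels and shares kept moved mainly with the rule. Chosen at 80% and 50%, members had median levels of 58.6% (E12.5 PGCs), 72.6% (ESC-PGCLCs) and 68% (pESC-PGCLCs) and kept 68.9%, 85.5% and 80.2%. Chosen at 60% and 30%, they had 49.5%, 61.8% and 57.1% and kept 66.1%, 82.6% and 76.3%. Means in place of medians gave 53.5% at E12.5 and 62.4% in pESC-PGCLCs, and 1 member of each identical set gave 52.8% at E12.5. Relative to all promoters of 70% or more at E9.5, the shares kept were 101.8%, 104.2% and 105.5%. With 1 library left out, they ranged from 66.7% to 67.2%, from 83.6% to 84.2% and from 77.5% to 78.3%. Of the 99 recomputed values 53 were unchanged by these criteria and 46 moved.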
